A study of Mus musculus with 6 samples.

Results

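The clustered protocadherin genes are described here in whole mouse brain at E15.5 (E, embryonic day). Members were all transcript IDs of the deposited tables whose gene symbol placed them in the Pcdha, Pcdhb or Pcdhg cluster. This rule used names and no measured value. It found 54 members among 23485 IDs, namely 11 of the alpha, 22 of the beta and 21 of the gamma cluster. The gene table held 58 such symbols, and Pcdha4, Pcdha6, Pcdha7 and Pcdhgb8 are not analysed here. The samples were 3 female and 3 male pools of RNA, all from wild-type C57BL/6 embryos, and no treatment is given in the labels. Embryos were sexed by their gonads, and each pool joined the RNA of several brains. A p-value below therefore measures the spread between such pools. The comparison of the sexes asks whether these adhesion genes are among the transcripts that differ between female and male brain before birth.

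Clustered protocadherins are cell surface proteins of the cadherin superfamily that bind identical partners on neighboring cells. Each neuron switches on a small and partly random choice of the variable isoforms, and this mix labels the neuron so that its own branches recognize and avoid each other. In the alpha and gamma clusters every variable first exon has its own promoter and is spliced to a shared set of 3 constant exons, which code for the common cytoplasmic end. The beta genes have no such constant exons, and each is a gene within a single exon. The last isoforms of the alpha and gamma clusters are called C-type, and they are set apart from the other isoforms by sequence and by more regular use across neurons. The C-type isoforms are Pcdhac1, Pcdhac2, Pcdhgc3, Pcdhgc4 and Pcdhgc5. Stochastic choice of a promoter depends on the insulator protein CTCF, on cohesin and on DNA methylation.

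All 3 clusters lie on chromosome 18. In the NCBIM37 build (mm9), the GENCODE annotation gives the alpha gene at chr18:37089939-37347311, the beta genes at chr18:37424652-37681073 and the gamma gene at chr18:37833989-38001527, all read in the same order. It shows 20 of the 22 beta genes as single exons and gives Pcdhb8 and Pcdhb20 with 2 exons. The beta transcripts were 2340 to 7131 nt long, with a median of 3472 nt. First exons were 2382 to 2562 nt long in 9 annotated alpha transcripts and 2565 to 2961 nt long in 9 gamma transcripts. The annotation joins the alpha isoforms, and likewise the gamma isoforms, under a shared gene name, so the median first exon of the cluster (2394 nt for alpha and 2595 nt for gamma) served as the length of each isoform.

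The constant exons, which isoforms of a cluster share, made up 15.6% to 54.4% of the annotated alpha transcripts and 41.7% to 45.2% of the gamma transcripts. Beta genes and first exons were compared apart from them. The share of 100-base windows that also occurred in another annotated transcript was at most 2.88% in 21 beta genes, with a median of 0%, and at most 1.48% in the gamma first exons. In the alpha first exons the median was 3.33% and the highest share was 13.3%. GC content was 41.2% to 52.7% in beta genes, 50.8% to 55.1% in alpha first exons and 50.6% to 56.8% in gamma first exons. Antisense genes are annotated within the alpha cluster (Gm10545 and Gm10544) and within the gamma cluster (Gm16882). Whether reads were counted by strand is not stated, so such reads and those of the isoforms they overlap cannot be told apart.

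How reads from the constant exons were handled is not stated either, and the counts set a limit on it. If each such read had been given to every isoform, no isoform could hold fewer counts than these reads. Pcdha1, the alpha isoform with the lowest total, had 7 to 20 counts per sample, against 166 to 373 counts for Pcdhac2, the highest. In the gamma cluster Pcdhgc5 had 51 to 156 counts, against 1281 to 3051 counts for Pcdhgc3. Over the 6 samples the lowest isoform had 5.39% of the counts of the highest in the alpha cluster and 3.77% in the gamma cluster. In single samples this share reached 11.7% in the alpha and 5.77% in the gamma cluster, and reads given to every isoform could make up no more than that of the highest isoform. The 2 read-through transcripts that join alpha and gamma exons, Gm38666 and Gm38667, had between 1 and 6 counts per sample.

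Samples held 4908565 to 10294443 counts, and the members took 7227 to 14049 counts of each, or 0.114% to 0.155%. Levels are given as CPM (counts scaled to a common library total, with TMM factors for composition), and a count of 0 allows up to 0.291 to 0.611 CPM. Xist had 6153 to 10001 counts in females and 4 to 7 in males, so each sample matched its labelled sex. Markers of neurons summed to 2539 to 3702 CPM and those of neural progenitors to 2669 to 3160 CPM. The samples also carried 17550 to 25841 CPM of meninges and fibroblast markers and 3496 to 5645 CPM of skeletal muscle markers. In such bulk samples, fewer cells of a type and less RNA per cell cannot be told apart.

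The gamma cluster held most of the counts, followed by the beta and then the alpha cluster. In females the summed level of gamma members was 999 CPM ± 58.3 (SD, n = 3), against 359 CPM ± 19.1 for beta and 112 CPM ± 14.2 for alpha members. Gamma isoforms took 68.1% of the member counts on average, with a range of 66.3% to 69.0% over the samples. Beta genes took 24.1% (23.2% to 26.1%) and alpha isoforms took 7.85% (7.11% to 8.80%). The ranges of the 3 clusters were far apart, and the division of counts among the clusters was similar in all 6 samples. Counted per kb of first exon, or of the beta gene, the shares were 73.3%, 17.6% and 9.15%.

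**Figure D1:**
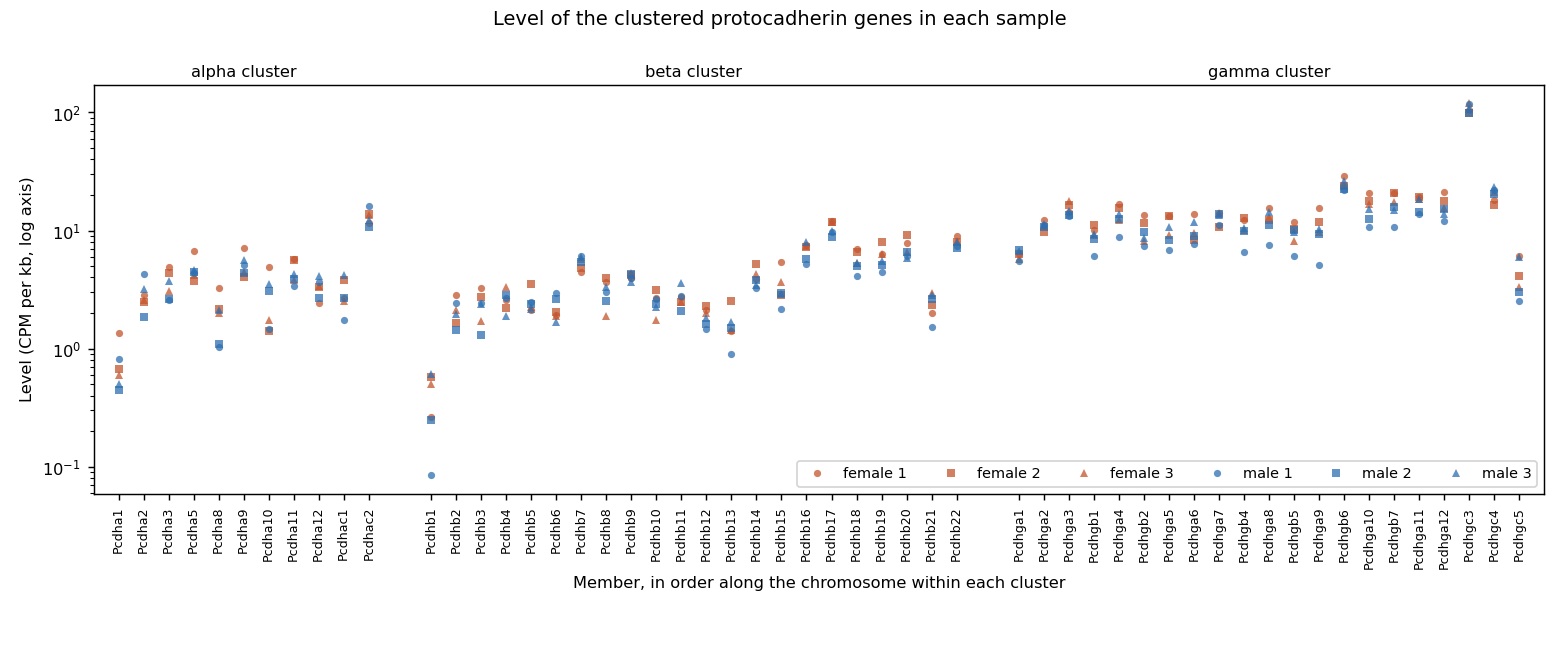
Level of each of the 54 members in each of the 6 samples, in CPM per kb on a log axis, with members in their order along the chromosome within each cluster. Colors mark sex and symbols mark the replicate. Pcdhgc3 stands above all other members at a mean of 108 CPM per kb, and Pcdhb1 is lowest at 0.379.

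Members were next ordered by level per kb, that is, CPM divided by the length given above. Pcdhgc3, a C-type isoform that is widely used across cells, was highest at a mean of 108 CPM per kb. The 3 female samples gave 275, 256 and 312 CPM, in the order of their replicate numbers, and the 3 male samples gave 305, 255 and 280 CPM. It was followed by Pcdhgb6 at 24.6 CPM per kb and Pcdhgc4 at 20.2 CPM per kb. Pcdhgc3 lay above Pcdhgb6 in every sample, and the sexes overlapped. Pcdhgc3 alone supplied 25.8% to 37.4% of the gamma counts, with the highest share in male sample 1.

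The highest alpha isoform was also C-type. Pcdhac2 had 27.7, 33.2 and 32.4 CPM in the females, again by replicate number, and 38.6, 25.5 and 29.1 CPM in the males. It took 21.7% to 36.2% of the alpha counts, and at 12.98 CPM per kb it lay above Pcdha9 (5.10 CPM per kb) and Pcdha5 (4.69 CPM per kb), the next in order. C-type isoforms were not uniformly abundant. Pcdhac1 reached 2.94 CPM per kb, below 6 of the other 10 alpha members, and Pcdhgc5 was the lowest gamma isoform at 4.18 CPM per kb. Pcdhgc5 ranged from 6.52 CPM in male sample 1 to 15.9 CPM in female sample 1.

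Among the beta genes Pcdhb17 was highest at 10.7 CPM per kb, with Pcdhb22 (7.94) and Pcdhb20 (7.002) behind it. The lowest member of all was Pcdhb1, the first beta gene, at 0.379 CPM per kb and 2 to 15 counts per sample. Its 2 counts in male sample 1 were under the limit of 3 counts. The span from highest to lowest was 28.1-fold in the beta cluster, 25.8-fold in the gamma cluster and 17.8-fold in the alpha cluster. Median levels per kb were 12.3 for gamma, 3.27 for alpha and 2.87 for beta members. With whole transcript lengths these medians were 6.78, 2.74 and 2.87 CPM per kb. The alpha length used there was 2853 nt, the median of 9 annotated transcripts of 2841 to 5422 nt. Their last exon is annotated with 311 nt in some and 2712 nt in others. With the longer form the alpha median would be lower, so its place beside the other clusters is uncertain by this measure.

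Most neighbors in this order could not be separated. Over the 6 samples, only 1 of the 53 neighboring pairs did not overlap, that of Pcdhgc3 and Pcdhgb6. Within the alpha cluster this held for 1 of 10 pairs (Pcdhac2 above Pcdha9). Within the beta cluster it held for 2 of 21 pairs (Pcdhb7 above Pcdhb9 and Pcdhb13 above Pcdhb1).

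Level also varied with place in the cluster. The 7 beta genes at the far end of the cluster, Pcdhb16 to Pcdhb22, took 56.2% to 62.4% of the beta counts, and their median was 6.86 CPM per kb against 2.48 CPM per kb for the 15 genes before them. This division was chosen after the values were seen. Pcdhb21 was an exception within it at 2.39 CPM per kb. Spearman's rho between position and level was 0.64 over the 22 beta genes, 0.62 over the 18 gamma A and B isoforms and 0.33 over the 9 alpha isoforms without C-type members. These members share libraries, and isoforms within the alpha or the gamma cluster also share 1 assumed length, so rho is a description only.

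The sexes were then compared, and no member was called. An edgeR quasi-likelihood test over 13374 IDs, with Benjamini-Hochberg adjustment over all of them, called 0 of the 54 members at an adjusted p under 0.05, where 0.0299% of all tested IDs were called. The smallest adjusted p of a member was 0.341. All 54 members passed the count filter (10 or more counts in at least 1 sample), so none was lost before the test. At an unadjusted p under 0.05 there were 6 members (11.1%), all lower in males, where 11.5% of all tested IDs met this and 4.82% did so with the higher level in females. Higher in males at this level were 0 members and 6.68% of all tested IDs. DESeq2 with 1 RUVr factor called 1 member, Pcdhgb7 (log2 fold change -0.52, adjusted p = 0.0486), where it called 2.53% of all IDs. DESeq2 without that factor called 0 members (0.71% of all IDs) and left 5 at an unadjusted p under 0.05 (10.7% of all IDs).

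The 6 members were Pcdhga9, Pcdhga10, Pcdhga12, Pcdhgb7, Pcdhb17 and Pcdhb19, and they are variable isoforms or beta genes from the far part of their clusters. When single samples were left out, 2 members were at this level without the first female sample and 3 without the first male sample, while 10 members were at it without the third female and 10 without the third male sample. In these fits the share of all tested IDs at an unadjusted p under 0.05 was 5.73%, 9.49%, 16.1% and 14.4%. Without female sample 3 the 10 included Pcdhgc4, which was higher in males.

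Most fold changes of members lay below 0, which means a lower level in males. This was so for 45 of 54 members (83.3%), where 51% of all tested IDs lay below 0. The median log2 fold change was -0.22 over the members and -0.01 over all tested IDs. With 1 sample left out the median of the members ranged from -0.16 without male sample 1 to -0.33 without male sample 3, and the number below 0 from 38 without female sample 1 to 43 without male sample 1 or 3. By cluster it was -0.06 for the 11 alpha, -0.21 for the 22 beta and -0.30 for the 21 gamma members. Below 0 were 8 alpha, 19 beta and 18 gamma members. These are descriptions of members that share libraries, and the difference between clusters was not tested.

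**Figure D2:**
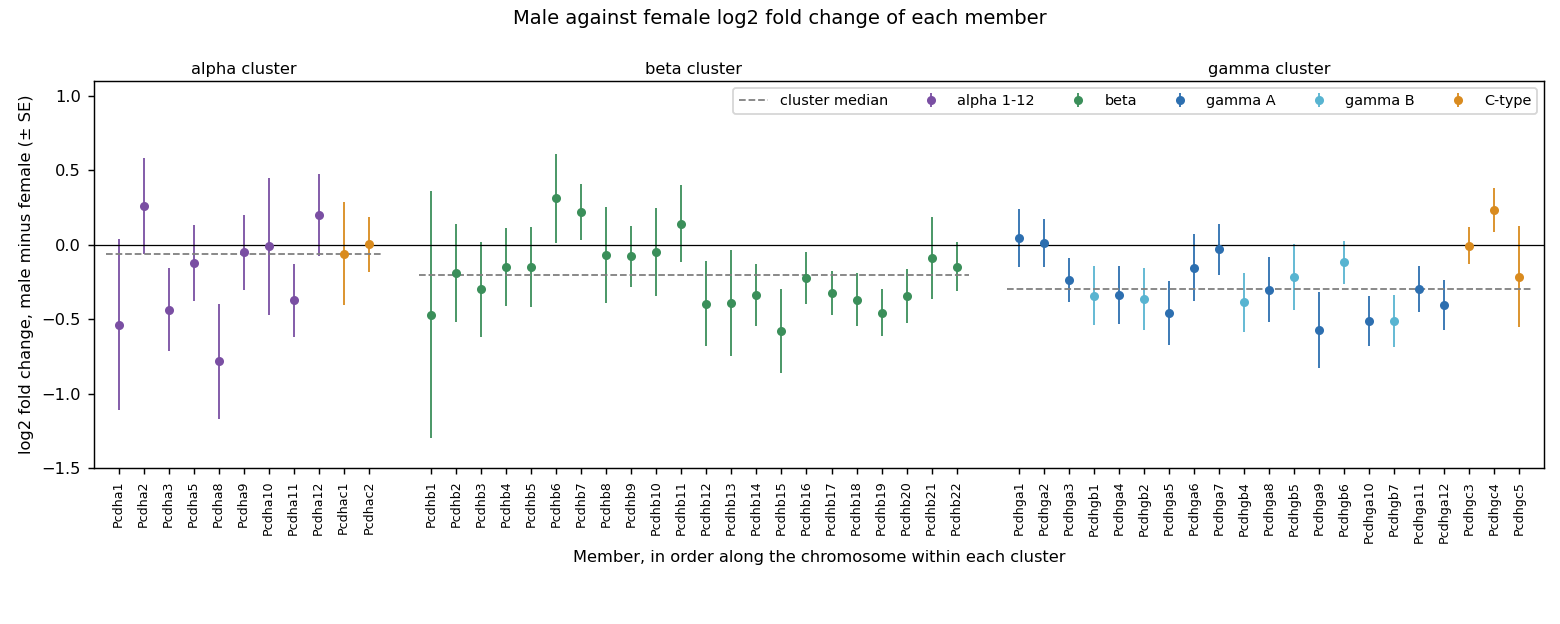
Log2 fold change, male minus female, with its SE for each member in order along the chromosome within each cluster, colored by type of member. Dashed lines are the cluster medians of -0.06, -0.21 and -0.30, and 45 of the 54 points lie below the line at 0.

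The alpha and gamma isoforms, which share constant exons, were set beside the single-exon beta genes. Over the 32 alpha and gamma members the median was -0.23 and 26 lay below 0 (81.3%), against -0.21 and 19 of 22 (86.4%) for beta genes. Within the gamma cluster the median was -0.30 for the 12 A-type and -0.35 for the 6 B-type isoforms, and without male sample 1 both were -0.19. All 6 gamma B isoforms lay below 0, from -0.51 for Pcdhgb7 to -0.12 for Pcdhgb6. For the 5 C-type isoforms the median was -0.01, with values from -0.21 to 0.23. The 7 beta genes from Pcdhb16 on had a median of -0.32 and the 15 before them -0.15. With trends in length and GC content removed, the median was -0.25 over the alpha and gamma members (28 of 32 below 0) and -0.11 over the beta genes (16 of 22 below 0). In that fit it was -0.19 over the 7 beta genes from Pcdhb16 on and -0.097 over the 15 before them (10 below 0). With 1 sample left out, the alpha and gamma median ranged from -0.11 without female sample 1 to -0.39 without male sample 3, and was -0.14 without male sample 1. That of the 15 beta genes ranged from -0.077 without female sample 2 to -0.26 without female sample 3.

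Summed levels, which weight abundant members most, were compared by sample. The whole gamma cluster summed to 999 CPM ± 58.3 (SD, n = 3) in females and 883 CPM ± 75.9 in males, and the sexes overlapped. By sum the log2 ratio of male to female was -0.18 for gamma and -0.24 for beta members, so the order of these clusters was the opposite of that by medians. Beta genes summed to 362, 377 and 339 CPM in the females, listed by replicate number here and below, and to 290.3, 299 and 326 CPM in the males. All female samples lay above all male samples. Gamma A and B isoforms summed to 727, 648 and 598 CPM in females and 447, 553 and 609 CPM in males. Here female sample 3 lay below male sample 3, so the sexes overlapped, and male sample 1 was lowest.

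Alpha isoforms summed to 128, 109 and 100.4 CPM in females and 107, 90.5 and 115 CPM in males, with overlap. The gamma C-type isoforms summed to 341 CPM ± 33.2 (SD, n = 3) in females and 347 CPM ± 28.1 in males, a difference smaller than the spread between samples. The number of gamma A and B counts per gamma C-type count came to 2.15, 2.098 and 1.59 for females and 1.21, 1.76 and 1.71 for males. This ratio needs no library scaling, and the sexes overlapped in it.

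**Figure D3:**
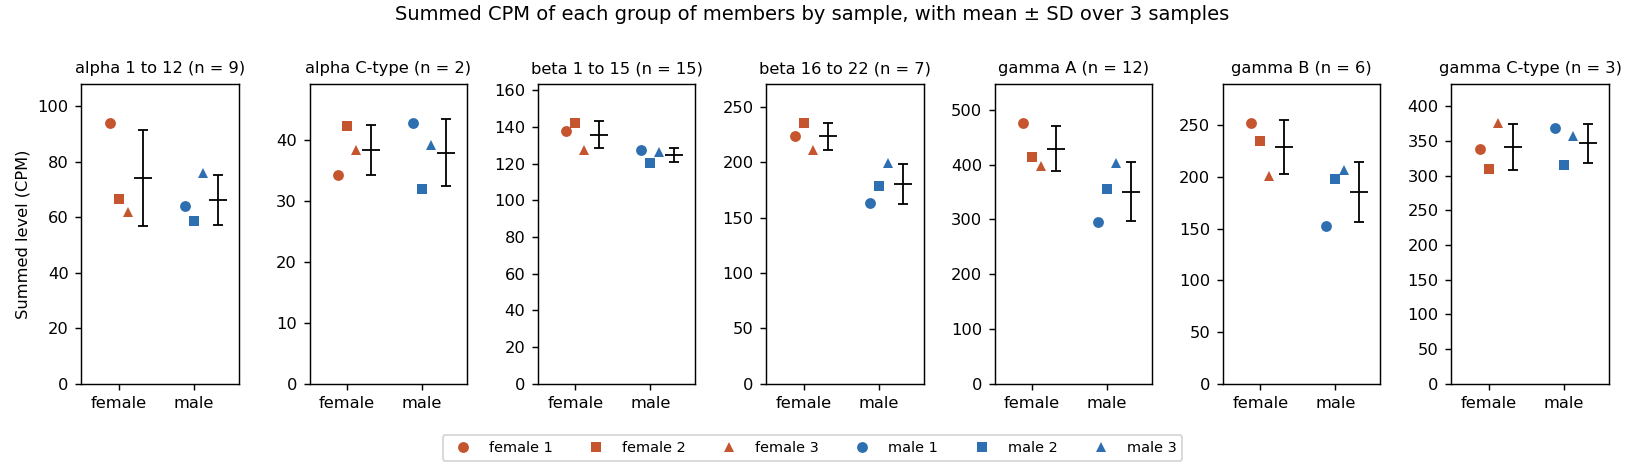
Summed CPM of 7 groups of members in each sample, each panel from 0 with its own scale, with the mean and SD over 3 samples beside the points. All female samples lie above all male samples for both beta groups, the sexes overlap in the gamma A, gamma B, alpha and C-type groups, and male sample 1 is lowest for gamma A and gamma B.

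All 3 female samples lay above all 3 male samples for 8 members (14.8%), where 8.35% of all tested IDs did so. No member had all male samples above all female samples, where 8.7% of all tested IDs did. The 8 were Pcdhb12, Pcdhb14, Pcdhb17, Pcdhb19, Pcdhga10, Pcdhga11, Pcdhga12 and Pcdhgb7. When male sample 1 was left out, all females lay above both remaining males for these 8 and Pcdha1, 9 members in all, where 13.4% of all tested IDs did so. Both remaining males lay above all females for 1 member, Pcdhga1, where 13% of all tested IDs did so.

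The neighbors Pcdhga10 and Pcdhgb7, a gamma A and a gamma B isoform near the end of the variable exons, had the smallest unadjusted p-values. Pcdhga10 had 53.5, 45.7 and 43.6 CPM in females and 27.8, 32.4 and 39.7 CPM in males. The groups did not overlap, and male sample 1 was lowest. On the log2 scale males differed from females by -0.51 (SE 0.17), and the edgeR adjusted p was 0.341.

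Pcdhgb7 had 53.5, 54.1 and 45.1 CPM in females and 27.6, 40.7 and 38.9 CPM in males. Again the groups did not overlap and male sample 1 was lowest. The log2 fold change of Pcdhgb7 was likewise -0.51 (SE 0.17), for which the edgeR adjusted p was 0.344. Over all alternative analyses its adjusted p ranged from 0.0486 to 0.809.

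Pcdhga12, the last gamma A isoform, had 54.9, 46.1 and 40.3 CPM in females and 31.5, 39.3 and 36.0 CPM in males, without overlap. The gap between female sample 3 and male sample 2 was small. The edgeR log2 fold change was -0.40 with SE 0.16 (adjusted p = 0.390). Pcdhga11 had 50.4, 50.1 and 48.4 CPM in females and 35.7, 37.2 and 47.9 CPM in males, and male sample 3 was close to the females. The edgeR log2 fold change was -0.30 with SE 0.16 (adjusted p = 0.470).

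Pcdhga9 had a larger change with a wider spread. Its level was 40.4, 30.8 and 25.1 CPM in females and 13.4, 24.3 and 26.8 CPM in males. Male sample 3 lay above female sample 3, so the groups overlapped, and male sample 1 was far below the rest. The edgeR log2 fold change was -0.58 with SE 0.26 (adjusted p = 0.418), and it was -0.32 without male sample 1, -0.38 without female sample 1 and -0.77 without male sample 3.

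Among the beta genes Pcdhb19 (chr18:37656651-37663781) had 45.4, 57.5 and 45.1 CPM in females and 31.8, 36.5 and 39.3 CPM in males. The groups did not overlap. The edgeR log2 fold change was -0.46 with SE 0.16 (adjusted p = 0.352). Pcdhb19 has the longest annotated beta transcript, at 7131 nt, and with length and GC trends removed its log2 fold change was -0.22 (edgeR adjusted p = 0.665). In that fit 0 beta genes and 7 alpha or gamma members had an unadjusted p under 0.05, where 8.93% of all tested IDs did. Pcdhb17 (chr18:37644675-37647943), the most abundant beta gene per kb, had 39.1, 38.4 and 38.9 CPM in females, which were close together, and 31.7, 28.9 and 32.3 CPM in males. It did not overlap either, and the edgeR log2 fold change was -0.32 with SE 0.15 (adjusted p = 0.431).

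The other beta genes without overlap were lower in level. Pcdhb12 had 6.13 to 6.99 CPM in females and 4.45 to 5.50 CPM in males, and its log2 fold change was -0.39 (SE 0.29). Pcdhb14 had 13.3 to 17.8 CPM in females and 11.3 to 13.0 CPM in males, with a log2 fold change of -0.34 (SE 0.21). The abundant beta genes Pcdhb20 and Pcdhb22 had values of -0.35 (SE 0.18) and -0.15 (SE 0.17) on the same scale, and both overlapped between the sexes. With 1 sample left out, Pcdhb14 ranged from -0.43 to -0.22 and Pcdhb22 from -0.19 to -0.094.

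The C-type isoforms differed among themselves. The log2 fold change was -0.01 (SE 0.13) for Pcdhgc3, 0.00 (SE 0.18) for Pcdhac2, -0.06 (SE 0.35) for Pcdhac1 and -0.21 (SE 0.34) for Pcdhgc5. The signs for Pcdhgc3 and Pcdhac2 turned under other scalings or filters. Pcdhgc4, an isoform with a known part in neuron survival, had 46.8, 42.6 and 55.0 CPM in females and 56.7, 52.6 and 61.0 CPM in males. Male samples 1 and 3 lay above all females, male sample 2 did not, and the edgeR log2 fold change was 0.23 with SE 0.15 (adjusted p = 0.549). With 1 sample left out it ranged from 0.15 without female sample 2 to 0.36 without female sample 3. A p above the threshold does not show that these levels were equal.

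Of the other abundant variable isoforms, Pcdhgb6 had a log2 fold change of -0.12 (SE 0.14), Pcdha9 of -0.05 (SE 0.25) and Pcdha5 of -0.12 (SE 0.25), and all overlapped between the sexes. The value of Pcdhgb6 ranged from -0.025 without female sample 1 to -0.20 without male sample 3. In the alpha cluster the lowest value was that of Pcdha8 at -0.78 (SE 0.39), and it rested on 17 to 51 counts per sample. It ranged from -0.54 without female sample 1 to -1.21 without male sample 3. The median SE was 0.28 for alpha, 0.27 for beta and 0.19 for gamma members, against 0.225 over all tested IDs.

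Male sample 1 stood low in the variable gamma isoforms. It was the lowest of the 6 samples for 30 of the 54 members (55.6%), where this was so for 25.3% of all tested IDs. This sample departed from the others beyond the members, since it was also the highest for 3402 of the 13374 tested IDs. The 30 members lowest in it included 16 of the 18 gamma A and B isoforms, 9 of the 22 beta genes and 4 of the 11 alpha isoforms. Female sample 1 was the highest for 26 members, among them 12 of the gamma A and B isoforms, where it was the highest for 19.7% of all tested IDs.

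The median deviation of the gamma A and B isoforms from their mean over the samples, on the log2(CPM + 0.5) scale, was -0.44 in male sample 1 and -0.07 and 0.08 in male samples 2 and 3. In female samples 1, 2 and 3 it was 0.34, 0.17 and -0.01. For the beta genes it was -0.11 in both male samples 1 and 2, -0.05 in male sample 3, and 0.12, 0.20 and 0.08 in the females. Gamma isoforms thus differed most between the first sample of each sex, whereas the beta median was below 0 in every male sample and above 0 in every female sample. Without male sample 1 the gamma median log2 fold change was -0.17 and without male sample 3 it was -0.41. The alpha median ranged from -0.27 without female sample 2 to -0.07 without female sample 1.

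**Figure D4:**
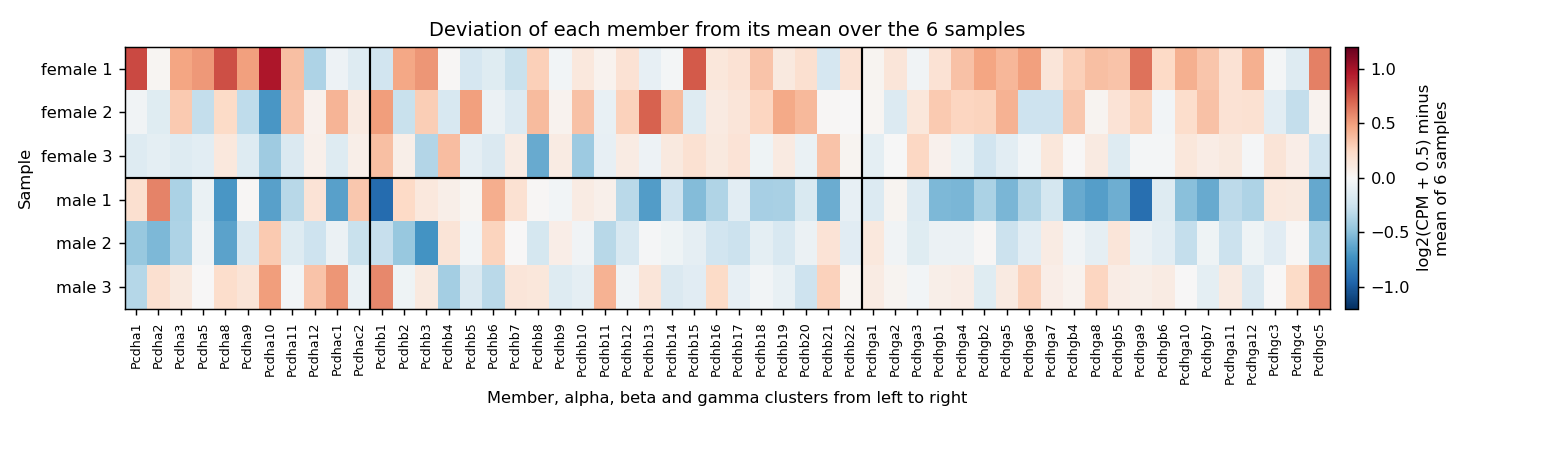
Deviation of log2(CPM + 0.5) from the mean of the 6 samples for each member (columns, alpha, beta and gamma from left to right) in each sample (rows), with blue below and red above the mean. The row of male sample 1 is blue through most of the gamma A and B isoforms, at a median of -0.44, and pale at Pcdhgc3 and Pcdhgc4.

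Other genes of the same pathway were examined from lists. Of the 9 other protocadherin genes outside the clusters that had an ID, such as Pcdh17 and Pcdh18, 12 IDs were tested, 0 were called and 0 had an unadjusted p under 0.05. Of these 12 IDs 8 lay below 0. Their summed level was 975 to 1011 CPM in females and 872 to 938 CPM in males, without overlap. Regulators of promoter choice, which include the cohesin subunits Rad21, Smc1a and Smc3, the repressors Rest and Smchd1 and the methyltransferase Dnmt1, gave 11 tested IDs with 0 called and 0 at an unadjusted p under 0.05. Of the 11 IDs 8 lay below 0, and the list summed to 2023 to 2192 CPM in females and 1923 to 1996 CPM in males, also without overlap. This sum rests on abundant IDs such as Rad21, at a mean of 628 CPM in females and 575 CPM in males. Some regulators were measured poorly. The ID of Dnmt1 had 15 to 39 counts per sample (SE 0.44) and that of Nipbl 5 to 39, while Dnmt3a, Pds5b and Wapl had at most 3 counts in every sample. Ctcf is not analysed here.

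Of 10 tested IDs of cytoplasmic and membrane partners, 0 were called and 2 had an unadjusted p under 0.05, where 11.5% of all tested IDs did. Of the 2, 1 was higher and 1 lower in males, where 6.68% and 4.82% of all tested IDs were. Both belong to the WAVE complex, which links such receptors to actin. Wasf1 was lower in males, with a log2 fold change of -0.53 (SE 0.23, edgeR adjusted p = 0.409), and Brk1 was higher, with 0.37 (SE 0.15, edgeR adjusted p = 0.391). Among genes beside the clusters, such as Hars and Taf7, 7 IDs were tested, 0 were called and 0 had an unadjusted p under 0.05. Only 1 of these 7 lay below 0, and their median was 0.10, with values such as 0.10 (SE 0.13) for Hars and -0.02 (SE 0.14) for Taf7. The members had a median of -0.22, and the difference between these sets was not tested.

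Of 45 tested IDs of cell type markers, 0 were called. At an unadjusted p under 0.05, 7 were higher and 3 were lower in males, where 6.68% and 4.82% of all tested IDs were. Most lists held values of both signs. Neuron markers summed to 2539 to 2984 CPM in females and 2868 to 3702 CPM in males. Of these 6 tested IDs, Tubb3 (log2 fold change 0.39) and Gap43 (0.58) were at an unadjusted p under 0.05. Dcx (0.55) also lay above 0, with all males above all females. The 3 others, Map2 (-0.07), Stmn2 (-0.02) and Syt1 (-0.63), lay below 0, and Syt1 rested on 2 to 20 counts per sample (SE 0.86). Neural progenitor markers summed to 2669 to 3015 CPM in females and 2753 to 3160 CPM in males, and of 6 tested IDs Hes5 (0.77) and Sox2 (0.39) were at an unadjusted p under 0.05, with all males above all females. Only Nes (-0.04) lay below 0, and Vim was at 0.05.

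Choroid plexus markers summed to 469 to 560 CPM in females and 586 to 746 CPM in males. Most of this sum was Ttr (0.38, at an unadjusted p under 0.05), at a mean of 474 CPM in females and 618 CPM in males, whereas Kcnj13 (-0.26) and Kl (-0.12) lay below 0 and the list median was -0.01. Endothelium markers summed to 554 to 588 CPM in females and 466 to 544 CPM in males. Cdh5 (-0.26) and Kdr (-0.17) lay below 0, and Cldn5 (0.43) lay above 0 at an unadjusted p under 0.05.

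For cartilage the sums were 95.7 to 186 CPM in females and 54.5 to 132 CPM in males, and for skeletal muscle 4987 to 5645 CPM and 3496 to 5604 CPM, with the lowest value of both in male sample 1. Matn1, Myh3 and 1 of the 2 IDs of Col9a1 were lower in males at an unadjusted p under 0.05. Epidermis markers were 858 to 949 CPM in females and 753 to 1494 CPM in males, with the highest value in male sample 1, and Krt15 was higher in males at such a p. Sums for serotonergic neurons (58.6 to 68.1 and 55.6 to 61.1 CPM), microglia (121 to 168 and 145 to 168 CPM) and meninges with fibroblasts (18974 to 23371 and 17550 to 25841 CPM) overlapped. Of the listed markers, Otx2 and Acan had at most 3 counts in every sample. The part of these cell types in the values of the members was not tested.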

How the data were processed

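Whole brains of E15.5 C57BL/6 embryos were sequenced as 3 female and 3 male pools. The authors trimmed reads with Trimmomatic 0.32, aligned them to mm9 with TopHat2 2.1.1, assembled transcripts with Cufflinks 2.2.1 and counted with featureCounts 1.5.1, according to the methods and the submitters' processing notes. The values deposited by the authors are raw counts per RefSeq transcript ID. Handling of shared reads, multiple alignments and strand is not stated. No sample was a copy of another of its sex, since the chi-square of a pair, divided by its degrees of freedom, was 9.03 to 44.9 (IDs with 20 or more counts in the pair). Male sample 1 departed from the other males over all such IDs, at 34.4 against male sample 2 and 44.9 against male sample 3. The other pairs were at 9.03 to 13.8. Limits set by 3 counts cover counting error only.

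Symbols came from a RefSeq table for 23359 of the 23485 IDs, and coordinates, lengths and GC content from GENCODE for NCBIM37. The test used every ID that reached 10 counts in any sample and ran in edgeR 4.0.16 (R 4.3.3), with TMM scaling and no covariate, and CPM used the totals of these IDs. Changes are log2, male minus female. Alternatives were other scalings and count filters, DESeq2 1.42.0, 1 RUVr factor taken from the edgeR residuals, a replicate block, summed IDs per symbol, removal of length and GC trends (known for 89.4% of tested IDs, with the median first exon for alpha and gamma isoforms), and each sample left out. Figures were drawn in Python 3.11.15 with matplotlib 3.10.9.

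Named were the 3 highest members per kb of each cluster, the C-type isoforms, members at an unadjusted p under 0.05 or without overlap between the sexes, and pathway genes at such a p, at most 4 per list. Others, such as Pcdha8 and Pcdhb1, were chosen after their values were seen. Lists were 4 of the pathway (unclustered protocadherins, regulators of the clusters, partners, genes beside the clusters) and 10 of cell types. The members and lists were chosen with earlier results of these data known. No batch is given in the labels.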

Additional observations from a re-analysis of the deposited data

How the results depend on the processing

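The replicate numbers did not pair the samples, since same-numbered deviations from the sex means correlated at -0.287, -0.064 and -0.203, and with a replicate block 3 members had an unadjusted p under 0.05 (8.41% of all tested IDs). That number was 11 with upper-quartile factors (12% of all IDs), 13 with 1 RUVr factor in edgeR (17.6% of all IDs) and 2 to 10 with 1 sample left out. No member was called in any alternative except 1 (Pcdhgb7, log2 fold change -0.52) in DESeq2 with 1 RUVr factor. With length and GC trends removed the beta median was -0.11. With 1 sample left out the alpha median ranged from -0.27 to -0.073, the beta median from -0.29 to -0.16 and the gamma median from -0.41 to -0.17, and the cause was not tested. Per kb of whole transcript the alpha, beta and gamma clusters took 11.7%, 26.8% and 61.5% of the members' counts, and per kb of first exon 9.15%, 17.6% and 73.3%. The whole alpha transcript was taken as 2853 nt, and the longer annotated ones (up to 5422 nt) would lower the alpha share. Of 304 alternative values for 19 named members, 22 had the opposite sign. Pcdhac2 was -0.0050 with RLE factors, -0.056 with upper-quartile factors, -0.019 with 10 or more counts in every sample, -0.0050 in DESeq2, -0.024 and -0.033 with a RUVr factor in edgeR and DESeq2, -0.014 with the replicate block and -0.041 without length and GC trends. Pcdhgc3 was 0.016 with no filter and 0.0042 with IDs summed per symbol. With 1 sample left out the ranges were -0.18 to 0.13 for Pcdhac2, -0.075 to 0.085 for Pcdhgc3, -0.27 to 0.16 for Pcdha5, -0.20 to 0.23 for Pcdha9, -0.44 to 0.22 for Pcdhac1 and -0.70 to 0.066 for Pcdhgc5. Depth limited the low members most, such as Pcdhb1 and Pcdha1.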
